A study of Mus musculus with 2 samples.

Results

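The miRNAs described here are the detected mouse miRNA genes whose symbol carries a number of 1000 or more. They were chosen by their counts: a gene entered with at least 10 reads on its annotated strand in each of 2 libraries. Of 577 rows with such a number, 43 were detected. The selection left out 4 of these, Mir1224, Mir3074-1 and, in a window of chromosome 12, Mir1193 and Mir3072, and it also left out a window of chromosome 2. The 39 genes that remained stand among 1973 miRNA genes with a row and 314 that were detected.

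Small RNA of a labelled size range below 30 was sequenced from the intestine of 2 newborn mice, with 1 library per animal. Both pups were of strain B6NCrl, untreated as far as the labels say, at postnatal day 0 and from the same pregnant female. The segment of intestine is not given and sex was not collected. With 1 group, the design holds levels and their spread between littermates, and no condition to compare. The libraries held 3567658 counts on the annotated strand of miRNA genes in pup 1 and 4683939 in pup 2, or 56.0% and 55.9% of all reads. Levels are CPM, the counts per 1000000 of those counts, with the mean ± SD over the 2 pups. They were not divided by gene length, since a read here is a whole small RNA. All 9 listed epithelial miRNAs were detected, with summed levels of 286751 CPM in pup 1 and 333027 CPM in pup 2, and the 3 listed pancreatic miRNAs were under the minimum, at 0.561 and 1.07 CPM in sum.

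A miRNA is cut from a hairpin in a longer transcript, first by Drosha with its partner Dgcr8 in the nucleus and then by Dicer in the cytoplasm. The mature strand, loaded into an Argonaute protein, pairs with messenger RNAs mainly through its seed, bases 2 to 8, and lowers their translation and stability. In mirtrons the spliced intron itself folds into the hairpin, so that splicing takes the place of Drosha. Numbers are given in the order of registration, so high numbers belong mostly to miRNAs registered later, many of them from deep sequencing. In the newborn intestine the best studied miRNAs carry low numbers, among them those of the epithelium, such as Mir194 and Mir192, and of smooth muscle, such as Mir143 and Mir145a.

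The mature sequences of the members on which the results turn are shown 5′ to 3′ from RefSeq (GRCm38.p6), with the seed in capitals. They are the members with the highest counts and those that differed most between the pups. No mature entry of Mir5099 was in the RefSeq table, and its hairpin is given further on.
miR-1983: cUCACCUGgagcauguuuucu
miR-3071-5p: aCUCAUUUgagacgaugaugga
miR-3071-3p: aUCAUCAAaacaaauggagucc
miR-1981-5p: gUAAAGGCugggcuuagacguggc
miR-1981-3p: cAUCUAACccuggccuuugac
miR-1306-5p: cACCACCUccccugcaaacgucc
miR-1306-3p: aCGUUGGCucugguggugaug
miR-1249-3p: aCGCCCUUcccccccuucuuca
miR-1247-5p: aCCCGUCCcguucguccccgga
miR-1247-3p: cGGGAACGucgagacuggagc
miR-1198-5p: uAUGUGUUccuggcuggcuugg
miR-1198-3p: aAGCUAGCcucuaacucauggc
miR-8112: uCUCCGCCaccuccaccgca

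Of the 39 members, 34 had a mature entry among those used, with 58 mature sequences of 19 to 26 nt (median 22). Entries on 1 chromosome, which holds 2 members, were not used, so those members were not examined. The 58 seeds were all different, so no seed grouped these 34 members. A seed shared with a detected miRNA of a lower number was found for 3 members. How many such matches unrelated sequences would give was not tested, so the pairs are not taken as families. The 3 pairs are shown because a shared seed is the usual basis for grouping miRNAs.
miR-1983: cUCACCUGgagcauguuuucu
miR-412-3p: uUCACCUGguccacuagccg
miR-3102-5p: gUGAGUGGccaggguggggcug
miR-702-5p: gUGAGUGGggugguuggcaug
miR-6240: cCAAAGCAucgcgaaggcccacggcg
miR-330-3p: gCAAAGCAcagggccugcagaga
Of these pairs, Mir1983 had 484 ± 79.7 CPM (SD, n = 2) and Mir412 23.1 ± 2.95 CPM. Mir3102 had 17.4 ± 0.759 CPM beside 9.82 ± 0.00738 CPM for Mir702. Mir330 had 82.2 ± 6.04 CPM, and Mir6240 had 20 counts in pup 1 and 19 in pup 2. The counts are per gene, so the share of each arm in them is not known.

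Few of the high-numbered rows reached the minimum. Of the 572 rows open to selection, 39 (6.82%) were detected, 262 had a count but stayed under the minimum, and 271 had 0 counts in both libraries. Of 465 rows numbered under 1000, 260 (55.9%) were detected. By band, detection was 13 of 75 rows (17.3%) from 1000 to below 2000 and 12 of 72 (16.7%) from 3000 to below 4000. It was 3 of 48 (6.25%) from 5000, 5 of 191 (2.62%) from 6000, 4 of 150 (2.67%) from 7000 and 2 of 32 (6.25%) from 8000 to below 10000. None of the 4 rows from 2000 to below 3000 was detected. Since counts chose the members, these shares are a description. For a row at 0, counting error alone allows a true level of up to 3 counts. This equals 0.841 CPM at the depth of pup 1 and 0.640 CPM at that of pup 2. It does not cover reads left out as multi-mapped, which were 30.3% of all reads in pup 1 and 29.8% in pup 2.

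**Figure D1:**
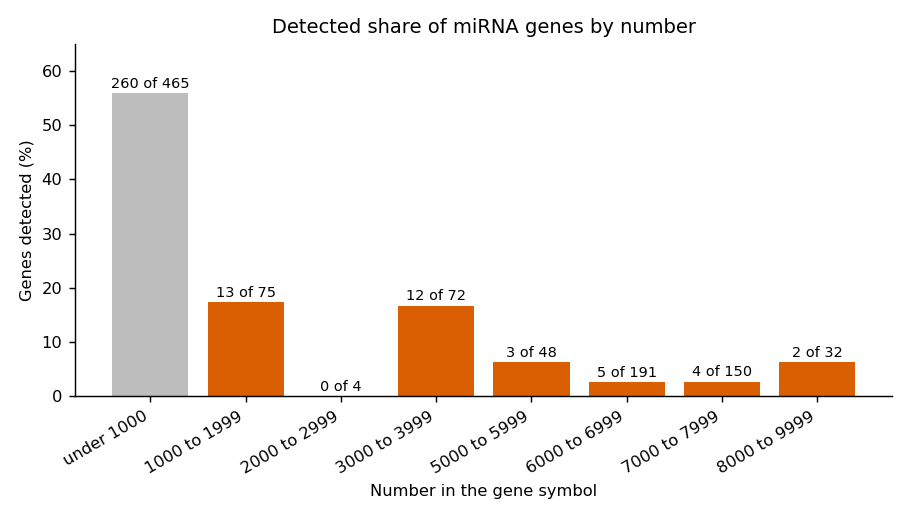
Detection by the number in the symbol. Each bar gives the percentage of rows of a number band with at least 10 counts in each of the 2 libraries, with the rows detected and all rows above it. The share was 55.9% for numbers under 1000, 17.3% from 1000 to below 2000 and 2.67% from 7000 to below 8000.

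The members nearest the minimum on the inside were Mir3075 with 11 counts in pup 1 and 10 in pup 2, Mir6897 with 12 and 10, and Mir3076 with 13 and 10. Nearest on the outside were Mir1943 and Mir5103, each with 9 and 13 counts, and Mir5104 with 8 and 23. In all, 19 rows reached 10 counts in 1 pup and not the other, 1 in pup 1 and 18 in pup 2, whose library was the deeper one.

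Together the members held 5138 counts in pup 1 and 6154 in pup 2, or 0.144% and 0.131% of the counts in miRNA genes (0.138% ± 0.00893, SD, n = 2). The 2 highest members held 57.7% and 53.8% of these counts, and the 5 highest 81.5% and 81.0%. The 34 lower members made up 0.0258% of all counts. The 533 rows under the minimum added 525 counts in pup 1 and 820 in pup 2, or 0.0161%. The median member stood at 4.83 CPM (quartiles 3.83 and 14.9), against 223 CPM (quartiles 37.4 and 1499) for the 260 detected miRNAs numbered under 1000. Of the members 4 were at or above 100 CPM, 8 between 10 and 100 CPM and 27 below 10 CPM. Of the 260 lower-numbered miRNAs, 164 were at or above 100 CPM.

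**Figure D2:**
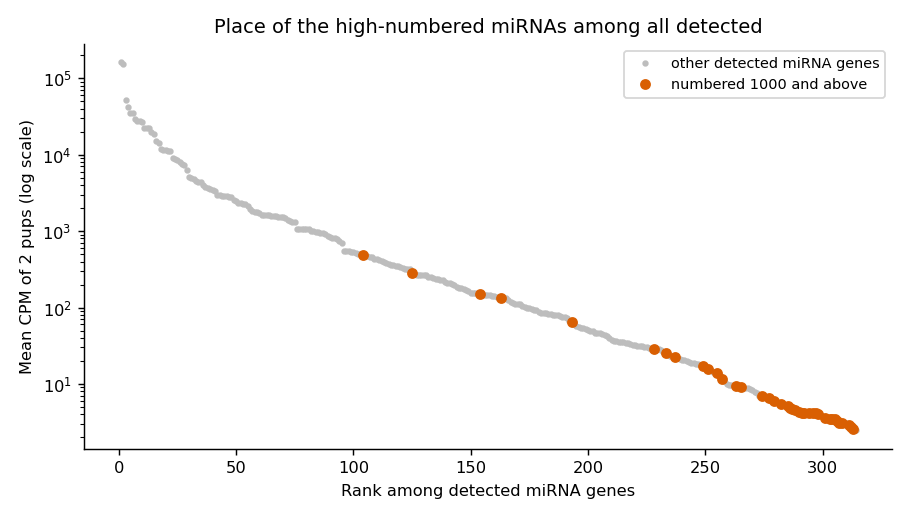
Levels of all 314 detected miRNA genes in order of rank. The x axis is the rank by mean CPM, the y axis (log scale) the mean CPM over 2 pups. The members start at rank 104 with Mir1983 at 484 CPM and lie mostly below 10 CPM, while the highest gene numbered under 1000 reached 161103 CPM.

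The highest member, Mir1983 (ENSMUSG00000088148), lies over a tRNA gene. Its hairpin of 132 nt (GRCm38, chr13:21896918-21897049, minus strand, outside any host gene) contains all 94 nt of a tRNA gene named n-TItat14 in RefSeq (chr13:21896938-21897031). It is printed with the mature miRNA in capitals to show where the mature sequence lies.
Mir1983 hairpin: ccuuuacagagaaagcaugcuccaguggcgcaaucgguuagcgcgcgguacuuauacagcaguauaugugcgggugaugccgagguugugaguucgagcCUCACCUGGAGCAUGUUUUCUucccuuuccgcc
Transfer RNAs bring amino acids to the ribosome, and fragments cut from them or from the trailers of their precursors occur in small RNA libraries. Of the 21 nt of miR-1983 (chr13:21896930-21896950), 13 lie within the tRNA gene and 8 run past the end of the tRNA gene that is the 3′ side of the hairpin. Mir1983 had 1926 counts in pup 1 and 2001 in pup 2, or 540 and 427 CPM. It was the 1 member of 39 whose hairpin overlapped an annotated small RNA gene in position. None of the 260 lower-numbered detected miRNAs and none of the 533 rows under the minimum did so. Hairpins that resemble a small RNA gene at another place were not looked for, so other members may do so. Whether the reads of Mir1983 come from a miRNA hairpin or from the tRNA precursor was not tested, since the counts give no read positions. Without Mir1983, the members held 0.0893% of the counts.

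Mir3071 (ENSMUSG00000070129) came next, with 1039 and 1310 counts, or 291 CPM in pup 1 and 280 CPM in pup 2. It lies in a coding exon of Rtl1, a retrotransposon-derived gene of the imprinted Dlk1-Dio3 region that is needed in the placenta (chr12:109595318-109595397, minus strand). On the plus strand the same place holds Mir136, for which the tables have no row. All but 1 of the reads of Mir3071 were counted as its own strand. The identifier of this row has version 1 in the tables and version 2 in the annotation used for symbols, whereas 37 of 39 members have the same version in both (the other exception was Mir1306). Whether the strand of the entry changed between these versions is not given in the sources used here, so whether the reads belong to Mir3071 or to Mir136 was not tested. Without Mir3071, the members held 0.109% ± 0.00811 of the counts (SD, n = 2).

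Mir1981 (ENSMUSG00000088559) is an intron from end to end. Its hairpin of 82 nt fills the whole of an 82-nt intron of Marc2, a mitochondrial amidoxime-reducing enzyme (chr1:184822407-184822488, minus strand). It is printed with both mature arms in capitals, which shows the start of the intron as the start of the 5′ arm and the last bases ag of the intron just after the 3′ arm.
Mir1981 hairpin: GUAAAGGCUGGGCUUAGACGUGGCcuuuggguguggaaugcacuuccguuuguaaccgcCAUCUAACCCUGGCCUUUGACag
Mir1981 had 454 counts in pup 1 and 804 in pup 2, or 127 and 172 CPM (149 ± 31.4). Mir3102, in Arhgef17, also filled an intron of 104 nt from end to end, which another annotated transcript retains. RefSeq gives it 4 mature sequences, and its 64 and 79 counts gave 17.4 ± 0.759 CPM.
miR-3102-5p: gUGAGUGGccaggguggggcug
miR-3102-5p.2-5p: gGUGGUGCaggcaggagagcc
miR-3102-3p.2-3p: cUCUACUCccugccccagcca
miR-3102-3p: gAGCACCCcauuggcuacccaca

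Abutment with the 3′ end of an intron, within 5 nt, was found for 6 members (15.4%), against 2 of the 260 lower-numbered detected miRNAs (0.769%) and 188 of the 533 rows under the minimum (35.3%). Beside Mir1981 and Mir3102, these members were Mir7083 in Dock6, Mir6897 in Uggt1, Mir3064 in Ddx5 and Mir3076 in Tkt. Both ends of the intron were met by 2 members (5.13%), 1 lower-numbered detected miRNA (0.385%) and 17 rows under the minimum (3.19%). These shares are a description, since counts chose the members.

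Mir5099 (ENSMUSG00000092998) lies outside annotated genes (chr12:36816205-36816278, plus strand), and RefSeq gives its hairpin without a mature arm in the table used.
Mir5099 hairpin: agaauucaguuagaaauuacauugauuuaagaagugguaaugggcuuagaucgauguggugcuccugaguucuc
It had 550 counts in pup 1 and 539 in pup 2, or 154 and 115 CPM (135 ± 27.6). Its level was thus lower in pup 2, where a nearly equal count came from a deeper library.

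Mir1306 (ENSMUSG00000080452) lies in a coding exon of Dgcr8, whose protein is the RNA-binding partner of Drosha (chr16:18284239-18284317, minus strand). It had 216 and 330 counts, or 60.5 CPM in pup 1 and 70.5 CPM in pup 2. A second annotated miRNA gene, Gm24572, lies 232 nt away and had 3 counts in each pup. Mir3064, in the helicase gene Ddx5 of the Drosha complex, had 15 and 11 counts. All but 1 nt of its hairpin of 67 nt lies in an intron of 737 nt, while another transcript holds all of it in an untranslated region. Mir5113 lies in an untranslated region of Tnrc6b, which encodes an Argonaute partner in silencing, and had 14 and 20 counts.

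Several other members of intermediate level lie in introns of protein-coding genes. Mir1249 lies in an intron of 2355 nt of 5031439G07Rik (chr15:84951526-84951623, minus strand). A retained-intron transcript holds the same place in an exon, so Mir1249 was counted as exonic. It had 107 and 126 counts (28.4 ± 2.19 CPM). Mir1968, in an intron of the Rab GTPase-activating gene Grtp1, had 82 and 103 counts (22.5 ± 0.703 CPM). Mir3105, in an intron of the postsynaptic scaffold gene Shank2, had 54 and 76 counts (15.7 ± 0.771 CPM). These values differed little between the pups. Mir3099 in the imprinted gene Usp29 had 44 and 50 counts (11.5 ± 1.17 CPM), and Mir1955 in the histone-reader gene Phf21a had 32 and 44 (9.18 ± 0.300 CPM). Mir6236, outside annotated genes, had 86 and 124 counts (25.3 ± 1.67 CPM), and 133 other genes share a run of at least 18 nt with its hairpin.

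Mir1247 lies in an exon of Dio3os, the noncoding RNA beside the thyroid-hormone deiodinase gene Dio3, and had 69 counts in pup 1 and 41 in pup 2, or 19.3 and 8.75 CPM. Mir1198, in an intron of Gripap1, whose protein binds a glutamate-receptor scaffold, had 21 and 60 counts, or 5.89 and 12.8 CPM. Mir8112 overlaps the gene Krcc1 by 125 nt and had 16 and 44 counts, or 4.48 and 9.39 CPM. Mir1298, 1 of the miRNAs in introns of the serotonin receptor gene Htr2c, had 25 and 23 counts (5.96 ± 1.48 CPM). Fewer than 30 counts in each pup were held by 24 members, Mir1298 among them, from Mir3061 with 29 and 23 counts in an untranslated region of Ppp2ca, the catalytic subunit of a phosphatase, down to Mir3075. Of the members given values here, Mir1298, Mir3061, Mir3064, Mir5113, Mir7083 and Mir1934 fall outside the naming rule and were chosen after their values were seen.

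**Figure D3:**
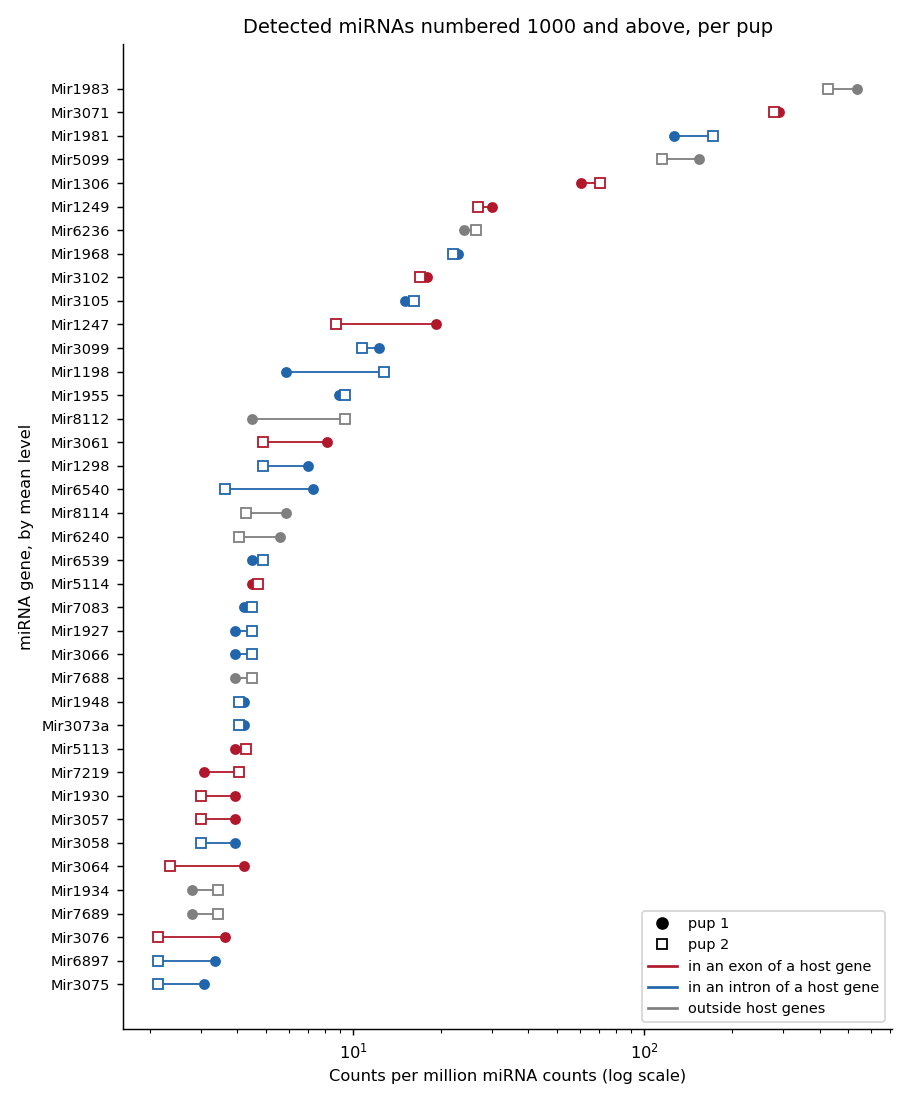
Levels of the 39 members in each pup. The x axis (log scale) is CPM and each row is a member, with a filled circle for pup 1, an open square for pup 2 and the colour giving its place in a host gene. The points lie close together for Mir3071 (291 and 280 CPM) and apart for Mir1247 (19.3 and 8.75 CPM) and Mir1198 (5.89 and 12.8 CPM).

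By place, 13 members (33.3%) overlapped an exon of a gene on their strand, 17 (43.6%) lay in introns and 9 (23.1%) lay outside host genes, 2 of which overlapped a gene in part. Of the 13 exonic members 12 lay whole in an exon of at least 1 annotated transcript, and Mir3076 reached an exon by 1 nt. Mir3071 and Mir1306 lay whole in a coding exon, and 5 members lay whole in an untranslated region of at least 1 transcript, while other transcripts can have an intron at the same place. Another 4 exonic members lay only in exons of transcripts without a coding region. Of these, Mir1249, Mir3102 and Mir1930 were exonic through retained-intron transcripts and lay within an intron of another transcript. Exonic placement was held by 22.3% of the 260 lower-numbered detected miRNAs and 23.3% of rows under the minimum. The median level was 4.59 CPM for exonic, 4.70 CPM for intronic and 5.08 CPM for outside members. Counts chose the members and most lie near the minimum, so these medians are a description and do not show whether places differ in level.

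Hairpins were folded in silico to compare the sets by predicted structure. The median minimum free energy per nucleotide was -0.435 kcal/mol for members, -0.433 for the 260 lower-numbered detected miRNAs and -0.398 for the 533 rows under the minimum. The quartiles overlapped, at -0.487 and -0.371 for members and -0.460 and -0.339 for the rows under the minimum. Among members the range ran from -0.719 for Mir3061 to -0.211 for Mir6240. The median length was 85.0 nt for members, 84.0 nt for the lower-numbered and 77.0 nt for the rows under the minimum. The share of paired bases had medians of 68.7% for members, 73.1% for the lower-numbered and 68.0% for the rows under the minimum. Members were thus close to the lower-numbered miRNAs in energy per nucleotide and to the rows under the minimum in pairing. GC content had medians of 53.8%, 48.8% and 54.5% in the same order.

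**Figure D4:**
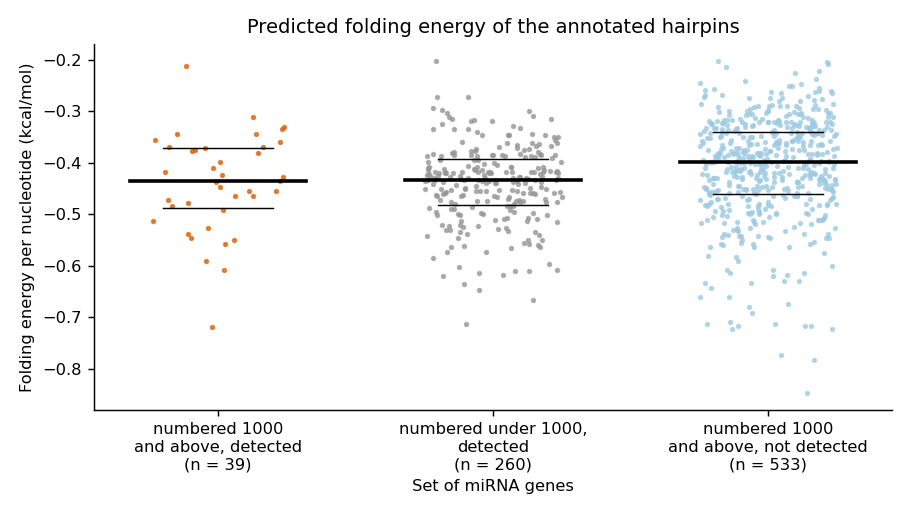
Predicted folding energy per nucleotide of the hairpins, as minimum free energy in kcal/mol per nt. The 39 members (median -0.435) lie near the detected miRNAs numbered under 1000 (median -0.433) and lower than the rows under the minimum (median -0.398), with thick lines for medians and thin lines for quartiles.

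Multi-mapped reads were left uncounted, so shared sequence can lower a count. Whether reads from similar genes were instead added to a count cannot be seen from the counts. A run of at least 20 nt shared with another hairpin was found for 1 member (2.56%), Mir8112, against 61 of the 260 lower-numbered detected miRNAs (23.5%) and 43 of the 533 rows under the minimum (8.07%). Among the annotated transcripts of GENCODE M21, 21 members shared no run of at least 18 nt with a gene at another place, and 4 shared one with over 10 genes. These were Mir1934 with 529 genes, Mir8112 with 248, Mir6236 with 133 and Mir6240 with 48, and their levels are uncertain for that reason. Sequence outside annotated transcripts was not searched, so the other members are not shown to be unique in the genome.

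Reads on the opposite strand were 0 in both pups for 37 of 39 members. Mir3073a was the exception in size. It lies in an intron of the asparaginase gene Aspg and faces Mir3073b, which has no row. It had 15 and 19 counts on its own strand and 32 and 40 on the other, or 68.1% and 67.8% of its reads. Of the 1973 rows, 32 face a miRNA gene, all of them without a row for the facing gene. Of the 24 with 20 or more reads, 12 had most reads on the opposite strand.

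A list of 10 miRNAs with a human gene of the same number had 8 entries with a row in the tables. It was written by hand and not checked for completeness, so it does not count all members with such a gene and may also miss rows under the minimum. The share detected on the list is therefore not an estimate for all rows with such a gene. Over all rows open to selection, 39 of 572 (6.82%) were detected. Detected were 4, Mir1306, Mir1249, Mir1247 and Mir1298, with summed levels of 121 CPM in pup 1 and 117 CPM in pup 2 over the list. Below the minimum were Mir3059 with 6 and 16 counts, Mir1251 with 6 and 4, Mir1264 with 3 and 6, and Mir1912 with 0 in both.

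The pups were compared as libraries with a 2-sided exact binomial test for each gene, adjusted over all 314 detected genes, which compares these 2 libraries and not conditions. Replicate spread within a pup was not measured, so a call means a difference beyond counting error. Of the 314, 129 were called (41.1%), 67 higher and 62 lower in pup 2. Among the members 6 of 39 were called (15.4%), 3 in each direction. Calls follow depth: of genes under 100 counts in a library 6 of 87 were called (6.90%), and of genes with at least 100 in each 123 of 227 (54.2%). Members under 100 counts gave 3 of 33 (9.09%) and those with more 3 of 6, each near the share of all genes of that depth. With 30 counts in sum, a gene had to be at least 3.14-fold higher or 2.55-fold lower in pup 2 to be called.

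Higher in pup 1 were Mir1983, Mir5099 and Mir1247. Mir1247 was 2.14-fold higher (95% interval 1.44 to 3.24, log2 ratio -1.10, exact binomial adjusted p = 3.63e-04). The difference of Mir1983 was 1.23-fold (log2 ratio -0.29, interval -0.39 to -0.20, exact binomial adjusted p = 8.57e-10). For Mir5099 it was 1.30-fold (log2 ratio -0.38, interval -0.55 to -0.21, exact binomial adjusted p = 6.10e-05). Higher in pup 2 were Mir1981, Mir1198 and Mir8112. Mir1198 was 2.24-fold higher (1.34 to 3.88, log2 ratio 1.16, exact binomial adjusted p = 0.00338), and Mir8112 2.16-fold (1.19 to 4.10, log2 ratio 1.11, exact binomial adjusted p = 0.0238). Mir1981 was 1.39-fold higher (log2 ratio 0.47, interval 0.31 to 0.64, exact binomial adjusted p = 6.78e-08).

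Among those not called, Mir3071 had a log2 ratio of -0.02 and Mir1249 of -0.11. Mir1306 had 0.26, with an interval of 0.01 to 0.52 and an exact binomial adjusted p of 0.0858, and upper quartile scaling made it a call (0.30, exact binomial adjusted p = 0.0431). The members' median log2 ratio was -0.02, beside 0.00 over all 314 genes. The median size of the log2 ratio was 0.33 for the 33 members under 100 counts in a library and 0.27 for all 87 genes of that depth. It was 0.18 over all 314 genes, most of them with more counts and so with less counting error. Of the 87 genes under 100 counts in a library, 5 were over 2-fold apart. Of these 5, 3 were members, and members made up 33 of the 87. Fewer than 30 counts in each pup were held by 24 members, and whether members vary more than other genes was not tested. The largest ratios of all detected genes were those of Mir196b and Mir196a-2, from Hox clusters, which pattern the body axis from head to tail. Mir196b had 2057 CPM in pup 1 and 66.2 CPM in pup 2, and Mir196a-2 had 76.2 and 7.47 CPM. Both were among the 62 of 129 called genes higher in pup 1, as were Mir1983, Mir5099 and Mir1247. Other detected miRNAs of the Hox clusters differed far less, with log2 ratios of -0.107 for Mir10a, -0.412 for Mir10b and -0.035 for Mir615. These Hox-cluster miRNAs were named after their values were seen, and the segment of intestine is not given for either pup. Marker miRNAs of other tissues and cell types follow. Mir122, a liver miRNA, was at 28.9 CPM in pup 1 and 12.4 in pup 2, and the listed smooth muscle miRNAs summed to 181056 and 150129 CPM (2 of 2 detected). The leukocyte list (4 of 4 detected) summed to 1166 and 1402 CPM, the erythroid list (2 of 3) to 101 and 148 CPM, the striated muscle list (3 of 4) to 347 and 355 CPM, and the endothelial miRNA stood at 54634 and 49791 CPM. The part of all these in the members' differences was not tested. In a bulk library, fewer cells of a type and less RNA per cell cannot be told apart.

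**Figure D5:**
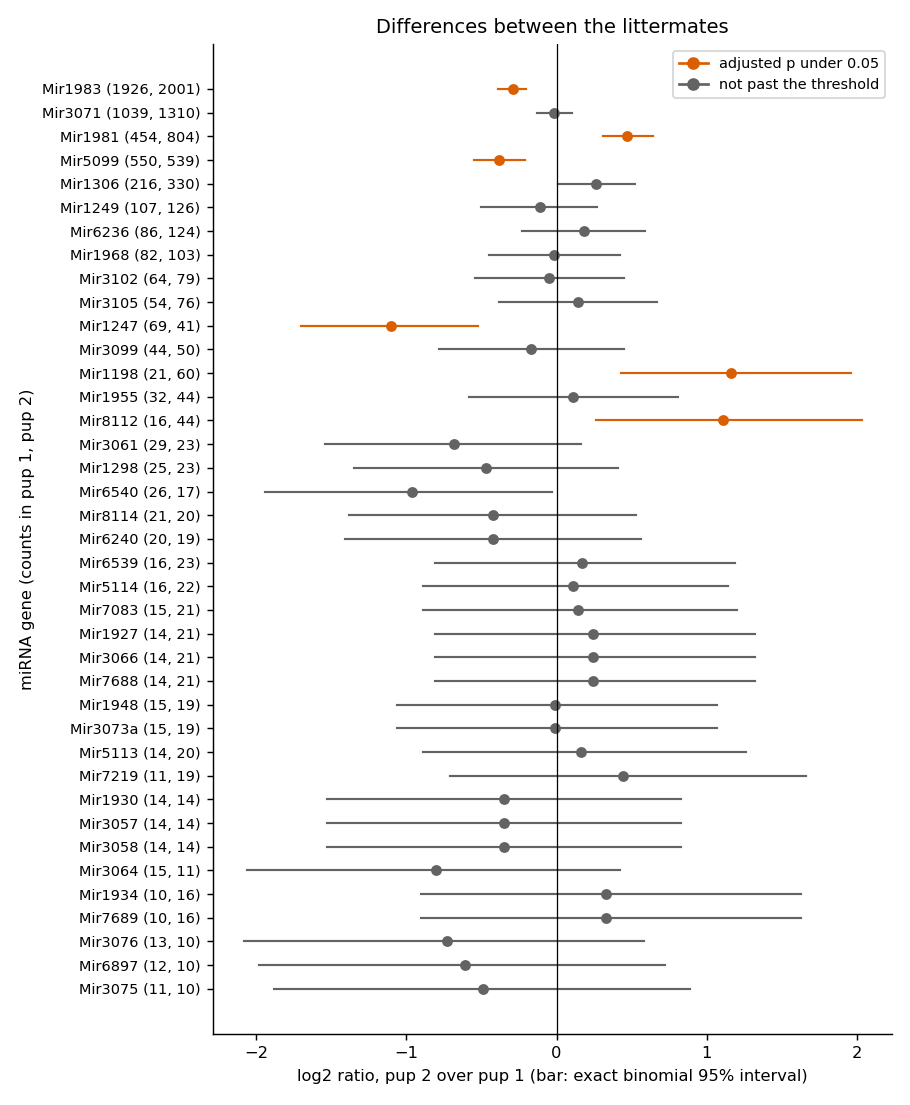
Log2 ratio of pup 2 over pup 1 for each of the 39 members, with its exact binomial 95% interval as a bar and the counts of both pups beside the name. Mir1981, Mir1198 and Mir8112 lie above 0 and Mir1983, Mir5099 and Mir1247 below it with an adjusted p under 0.05, and the intervals widen down the plot as the counts fall.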

How the data were processed

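The authors deposited raw read counts per miRNA gene for the 2 libraries, in 3 columns that hold, from their sums, reads on either strand, the annotated strand and the opposite strand. Per the text that accompanies the counts, they were made on mm10 with GENCODE M4. The aligner and the counting program are not given in the sources used here. The libraries held 6375694 and 8373497 reads in all. Reads mapping to several places (30.3% and 29.8%), unmapped reads (9.35% and 10.1%) and other totals that name no gene stayed out of library sizes and tests. Multi-mapped reads were counted for no gene, which lowers counts of near-identical genes.

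Of the 1973 identifiers 1894 matched GENCODE M21 on GRCm38, which gave symbols, coordinates and hosts, and the other 79 had 0 counts. A gene was exonic if it overlapped an exon of any transcript of a gene that contains it on its strand. Promoters were not used, and sequences came from RefSeq (GRCm38.p6). Entries on 1 chromosome, with 2 members, were not used here. Folding energies came from RNAfold of ViennaRNA 2.7.2.

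CPM values were counts per 1000000 counts on the annotated strand of miRNA genes. The pups were compared with 2-sided exact binomial tests at the ratio of TMM library sizes (edgeR 4.0.16) and Benjamini-Hochberg adjustment over the 314 detected genes, with a threshold of 0.05. Intervals are exact binomial at 95% and, like the floor of 3 counts, describe counting error alone, because PCR copies cannot be told from separate molecules here. Alternatives covered the scaling (DESeq2 1.42.0 size factors among them), the count minimum, the strand, the denominator and single members. Other versions were R 4.3.3, Python 3.11.15, SciPy 1.17.1 and statsmodels 0.14.6.

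The members and lists were chosen with earlier results of these data known. Named were the 15 highest members by CPM, members over 2-fold apart between pups, the 4 furthest each way among those with at least 100 counts, members sharing a seed with a detected miRNA or holding at least 10% of reads on the opposite strand, the 3 nearest the minimum on each side, and miRNA genes that face a member or lie within 10 kb.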

Additional observations from a re-analysis of the deposited data

Results flagged for a closer look

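Mir3073a had reads on the strand that the comparisons do not use, 32 in pup 1 and 40 in pup 2, which drew attention because 37 of the 39 members had 0 such reads in both pups and a count of 0 allows up to 3. These were more than its 15 and 19 counts on the annotated strand. The facing gene Mir3073b has no row, and whether the reads are its own was not tested.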

How the results depend on the processing

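Counting error set what could be called: at 100 counts in sum a gene had to be 1.67-fold higher or 1.69-fold lower in pup 2, and at 1000 counts 1.17-fold. Of the 314 genes, 129 were called with 67 higher in pup 2, and total counts gave 127 (53 higher, 74 lower) and upper quartile scaling 130 (84 higher, 46 lower), with a shift of all log2 ratios of -0.04 and 0.04. A fold of at least 1.5 left 10 of all genes and 3 of the 6 called members, and a minimum of 100 counts left 3 called of 6 members. The members' share was 0.138%, 0.0770% of all reads, 0.0893% without Mir1983 and, in an alternative added after seeing the data, 0.109% without Mir3071. It ran from 0.131% to 0.144% over single pups. The number of members was 39, 202 at a minimum of 1 count and 6 at a minimum of 100. Of 80 log2 ratios of the 20 named members under alternatives, 76 kept sign and call. Upper quartile scaling turned Mir3071 to 0.03, Mir1968 to 0.02 and Mir3073a to 0.03, none of them called, and made Mir1306 a call at 0.30. No paired analysis was possible because the series has 1 group.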

Other observations

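The serotonin receptor gene Htr2c holds several miRNA genes in its introns, described here after their values were seen. Mir1298 had 25 counts in pup 1 and 23 in pup 2, Mir448 had 6 in each, and Mir1264 had 3 and 6. Mir764 and Mir1912 had 0 in both pups, which by counting error alone allows up to 0.841 CPM in pup 1 and 0.640 CPM in pup 2. Among rows that reached the minimum in 1 pup, Mir7213 was the 1 that did so in pup 1, with 12 and 4 counts.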
